A study of Rattus norvegicus with 2 samples.

Results

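The transporter genes of amino acids, hexoses and monocarboxylates were examined in total spleen RNA of 1 rat given cocaine and 1 control rat. The genes were chosen by symbol alone, as members of the Slc1a, Slc2a, Slc3a, Slc7a, Slc16a, Slc36a, Slc38a and Slc43a families. This rule found 64 of the 15037 genes that had a symbol on the array. Of these, 39 belonged to the families of amino acid carriers and their heavy chains, with Slc43a3 among them by family, 11 belonged to the Slc2a family of hexose carriers and 12 to the Slc16a family. The other 2 were Slc7a6os, whose name marks it as a gene on the strand opposite Slc7a6 and which is not a carrier, and Slc7a3l1, for which no role is given here. Some genes of these families were not analysed here.
Both animals were male Sprague-Dawley rats, 6 weeks old at the start. The cocaine rat received 7 daily intraperitoneal doses of 50 mg/kg, and the spleen was taken 24 h after the last dose. The control is titled as not stimulated, and the study's methods give saline to control animals, but its treatment field in the labels repeats the cocaine dosing. The title and the series design were followed, and every direction below rests on that reading. Each spleen was hybridized to 1 Clariom S array, which gives 1 log2 signal per transcript cluster, a set of short probes for the transcripts of a gene. Each of the 64 genes had a single transcript cluster. Differences are given as log2 signal after cocaine less log2 signal in the control, so that -1 means a signal lower by 2-fold. Each group held a single array and thus no replicate. Values are therefore given without error or p-value, and their precision is limited by the number of arrays.
Carriers of the solute carrier class bring amino acids, sugars and lactate across the plasma membrane and the membranes of lysosomes. The Slc7a light chains work only when bound to a heavy chain of the Slc3a family, while the Slc16a lactate carriers need a small membrane glycoprotein such as basigin or embigin to reach the cell surface. In the spleen such carriers supply dividing lymphocytes and the erythroblasts of the red pulp, which in rodents form red cells throughout life and take up amino acids for globin and heme. Mature red cells live on glucose and export lactate.
The weakest signals cannot be read as expression. The array's 23 background features had signals up to 7.76 on both arrays, above the median transcript cluster (6.97 on both). A signal under 7.76 is called within background here, which does not show that a gene is silent. By this limit 23 of the 64 genes were above background on both arrays, 3 on 1 array only and 38 on neither. Markers of the tissue were present, since all 5 measured B cell markers and all 8 T cell markers had signals above background on at least 1 array, and all 6 markers of pancreas were within background on both arrays. Of 5 measured markers of fat, 2 were above background on at least 1 array, Fabp4 with signals of 11.90 after cocaine and 12.15 in the control and Adipoq with signals of 6.22 and 8.28.

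After cocaine, 7 of the 64 transporter genes had signals lower by 2-fold or more, against 4.97% of all genes, and 1 had a signal higher by as much, against 2.28% of all genes. The lower genes were Slc43a1, Slc16a10, Slc16a1, Slc43a3, Slc38a5, Slc7a5 and Slc7a9, and the higher gene was Slc7a2. Both signals of Slc7a9 and of Slc7a2 were within background, so their differences (-1.21 and 1.24) are not interpreted. Of the 26 genes above background on at least 1 array, 6 were at least 2-fold lower (8.87% of all genes so filtered) and none was at least 2-fold higher (2.65%). One of these 6, Slc38a5, passed this filter through the control array only. Of the 23 genes above background on both arrays, 5 were at least 2-fold lower and none at least 2-fold higher, against 6.96% and 2.15% of all such genes. The genes just past the 2-fold limit were Slc7a9 and Slc7a2, and those just within it were Slc2a13 (0.77) and Slc7a12 (0.72) among higher values and Slc36a1 (-0.68) among lower ones.
The median difference of the 64 genes was -0.03, and that of all genes was 0.04. For the 26 genes above background the median was -0.24, against 0.00 for all genes so filtered, and 20 of the 26 had a difference below 0, against 3600 of 7196. Of these 20, Slc16a7, Slc1a4 and Slc38a6 changed sign with the scaling. Among them, Slc38a5 and Slc36a1 passed the filter through the control array only, where they were higher. Slc16a11, with a difference above 0, passed it through the cocaine array only. For the 23 genes above background on both arrays the median was -0.21, and 18 had a difference below 0. For the 38 genes within background on both arrays the median was 0.10, and 25 of them had a difference above 0. All genes within background on both arrays also leaned this way, with a median of 0.06 and 4398 of 7841 above 0. The 56 genes within 2-fold spanned -0.68 to 0.77, and 36 of them were within background on both arrays. Of the 26 genes above background on at least 1 array, 20 thus lay within 2-fold of equal signal, and a few lay far below it.

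**Figure D1:**
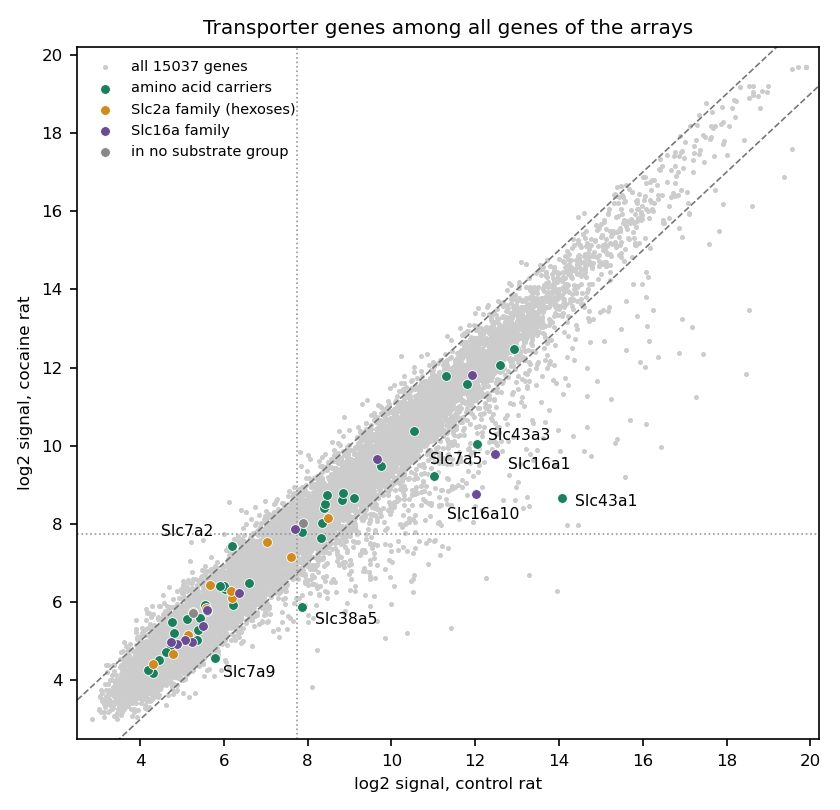
Log2 signal of every gene in the spleen of the cocaine rat (y axis) against that of the control rat (x axis), 1 array each, with the 64 transporter genes coloured by family; dashed lines mark 2-fold and dotted lines the highest background feature (7.76). Slc43a1, Slc16a10, Slc16a1, Slc43a3 and Slc7a5 lie below the lower dashed line and above background on both arrays.

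The same samples differed widely in red cell and cell division genes. All 12 measured red cell markers were lower by 2-fold or more. Their median difference was -6.12, and with signals within background raised to 7.76 it was -5.78 and 11 of the 12 were past 2-fold, Klf1 being at least 1.27-fold lower. They had signals of 3.83 to 13.47 after cocaine against 8.10 to 18.55 in the control. Of these, Epb42, Rhag, Klf1 and Gata1 were within background after cocaine and none was within background in the control. Of 9 markers of dividing cells, 8 were lower by 2-fold or more, and the median difference of the 9 was -2.54. Of all 15037 genes, 748 (4.97%) were lower by 2-fold or more, and 553 were so with signals within background raised to 7.76. The part of red cells and dividing cells in the transporter differences was not tested. In whole spleen RNA, fewer cells of a type and less RNA per cell cannot be told apart.

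Of the lower genes, 3 held the same short motif, 1 of several looked for, in a window around their annotated start. Windows of 300 bases, from 250 before to 50 after the annotated start, were read from the RefSeq promoter table (build GRCr8). It held 48 of the 64 genes and 5 of the 6 lower genes above background on at least 1 array. Slc43a3 was the one of the 6 without an entry, and Slc38a5 was above background in the control only. The E-box CACGTG, read on both strands, stood in the windows of Slc43a1, Slc16a1 and Slc7a5, that is in 3 of 5, in 6 of the other 43 transporter genes and in 7.08% of the 27457 genes of the table. The 6 others were Slc36a1, with a difference of -0.68, and Slc1a4, Slc7a14, Slc38a7, Slc1a6 and Slc1a7, with differences from -0.08 to 0.39. The site began 91 bases before the start of Slc43a1, 216 before that of Slc16a1 and 179 before that of Slc7a5. In that order the windows were 54.7%, 72.7% and 69.3% G and C. The share over all genes was not matched for base content. The windows of these 3 genes are shown because they share the motif, with the E-box in capitals. They lie at chr3:90327072-90327371 (plus strand), chr2:194812410-194812709 (plus strand) and chr19:66872363-66872662 (minus strand).
Slc43a1: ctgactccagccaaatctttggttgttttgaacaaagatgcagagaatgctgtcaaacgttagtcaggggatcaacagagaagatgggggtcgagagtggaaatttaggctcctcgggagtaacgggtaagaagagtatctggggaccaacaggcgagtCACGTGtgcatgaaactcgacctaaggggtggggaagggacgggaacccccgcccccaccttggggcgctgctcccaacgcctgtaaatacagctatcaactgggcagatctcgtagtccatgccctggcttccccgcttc
Slc16a1: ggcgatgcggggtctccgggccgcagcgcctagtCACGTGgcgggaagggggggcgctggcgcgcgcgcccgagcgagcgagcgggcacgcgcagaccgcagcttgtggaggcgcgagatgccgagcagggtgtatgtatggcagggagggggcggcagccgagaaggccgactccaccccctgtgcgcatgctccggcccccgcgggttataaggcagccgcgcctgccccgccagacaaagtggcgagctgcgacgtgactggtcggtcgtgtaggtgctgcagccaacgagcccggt
Slc7a5: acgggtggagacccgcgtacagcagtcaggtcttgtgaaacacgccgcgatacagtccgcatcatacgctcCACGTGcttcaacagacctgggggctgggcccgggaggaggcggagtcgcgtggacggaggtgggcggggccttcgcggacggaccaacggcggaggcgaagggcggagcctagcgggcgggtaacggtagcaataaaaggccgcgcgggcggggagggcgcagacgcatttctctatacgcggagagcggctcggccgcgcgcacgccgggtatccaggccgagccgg
The windows of Slc16a10 and Slc38a5 held no E-box. The core ACGTG of hypoxia response elements, which is contained in the E-box, was in the windows of the same 3 of 5 genes, in 14 of the other 43 and in 20.9% of all genes. The GATA factor motif AGATAA and the ATF4 motif TGATGNAAN were in none of the 5 windows, in 3 and 2 of the other 43, and in 12.2% and 4.14% of all genes. A match describes these letters and is not a binding site, and its absence from so short a window says nothing about a factor.

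The lowest differences of all 64 genes were those of Slc43a1 and Slc16a10, which carry large neutral and aromatic amino acids. Of other carriers of large neutral amino acids, Slc7a5 was 3.48-fold lower, and Slc43a2 and Slc7a8 were within 2-fold. Slc43a1 encodes LAT3, a sodium-independent carrier of leucine and other branched-chain amino acids. Its signal was 8.66 after cocaine and 14.07 in the control, a difference of -5.41 or 42.5-fold. This was the lowest of the transporter genes, and only 11 of the 15037 genes of the array had a lower difference. Slc43a2, which encodes the related carrier LAT4, had signals of 8.75 and 8.45, a difference of 0.29 in the other direction. Slc43a3, described in human and mouse cells as a carrier of purine nucleobases, had a signal of 10.05 after cocaine and 12.05 in the control, which is 4.02-fold lower. Thus the 3 members of the family were all above background on both arrays and did not share a direction.
Slc43a1 and Slc43a3 lie close together on the rat genome, with the protein-coding gene Rtn4rl2 between them in the RefSeq order. Rtn4rl2 was within background on both arrays (5.54 after cocaine and 5.96 in the control), as were Timm10, on the other side of Slc43a1, and Prg2, next to Slc43a3. Of 30 measured genes within 4 protein-coding genes of the 6 lower transporter genes, other than these themselves, 2 were at least 2-fold lower and 2 at least 2-fold higher. Over all genes the shares were 4.97% and 2.28%. The 6 include Slc38a5, which was above background in the control only. Zfpm1, a cofactor of GATA factors that lies 4 genes from Slc7a5, had signals of 8.01 and 10.21 and a difference of -2.20. Serping1, the inhibitor of complement C1, which lies 4 genes from Slc43a1, had signals of 11.48 and 9.97 and a difference of 1.51. The other 2, Magi3 near Slc16a1 and P2rx3 near Slc43a3, were within background on both arrays. Of the genes directly beside a lower transporter gene, Rpf2 (next to Slc16a10) and Lrig2 (next to Slc16a1) were above background, with differences of 0.08 and 0.04.
Slc16a10 encodes TAT1, a carrier of tryptophan, tyrosine and phenylalanine that belongs to the monocarboxylate family by sequence. Its signal was 8.77 after cocaine and 12.02 in the control, a difference of -3.25 or 9.52-fold. Slc7a5 encodes LAT1, which takes up large neutral amino acids in exchange for glutamine and is a carrier of activated and dividing cells. Its signal was 9.22 against 11.02, which is 3.48-fold lower. In the control rat the signals of both genes were well above the highest background feature.

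**Figure D2:**
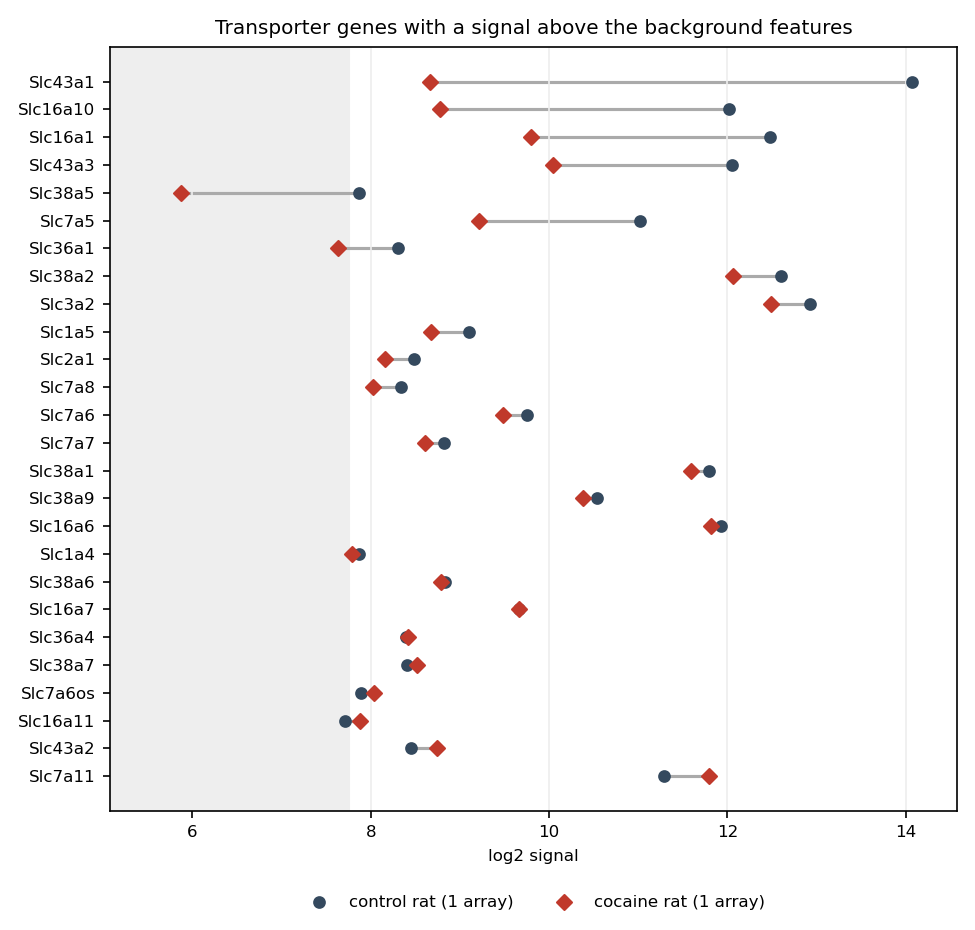
Log2 signal (x axis) of the 26 transporter genes above background on at least 1 array, in order of their difference, of the control rat (circles) and the cocaine rat (diamonds), 1 array each; the grey area lies under the highest background feature (7.76). The first 6 genes, from Slc43a1 to Slc7a5, are at least 2-fold lower after cocaine, and the signal of Slc38a5 there (5.88) is within background.

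The heavy chain of LAT1 was less different than its light chain. Slc3a2 (CD98), the heavy chain that LAT1 and several other light chains share, had a signal of 12.49 after cocaine and 12.93 in the control, a difference of -0.44, against -1.80 for Slc7a5. The other light chains that pair with it and were above background had differences from -0.32 to 0.49. Slc7a8 (LAT2) had signals of 8.02 and 8.34. Slc7a6 and Slc7a7, the y+L light chains that exchange cationic for neutral amino acids, had differences of -0.27 and -0.21. Slc7a11 (xCT), which imports cystine in exchange for glutamate and so feeds glutathione synthesis, had the highest difference of the 26 genes above background, with signals of 11.79 after cocaine and 11.29 in the control, or 1.41-fold higher. The light chains thus fell on both sides of 0, and Slc7a5 was the only one of the 5 above background that was past 2-fold.
The remaining light chains were within background on both arrays. Slc7a9, the cystine carrier of the kidney, had signals of 4.57 and 5.78, and its heavy chain Slc3a1 had signals of 4.26 and 4.20. Slc7a12 (0.72), Slc7a10 (-0.11), Slc7a13 (-0.12) and Slc7a15 (-0.31) were within 2-fold.

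Carriers of glutamine and small neutral amino acids had mostly small differences. Slc38a5 (SNAT5), which takes up glutamine, serine and glycine with sodium in exchange for protons, was the exception, with a signal of 5.88 after cocaine and 7.87 in the control. Its difference was -1.99, but with the lower signal raised to the highest background feature only a bound of at least 1.08-fold remains. Slc38a2 (SNAT2), a sodium-coupled carrier that cells raise when amino acids are short, had signals of 12.06 and 12.60 and a difference of -0.54. Slc38a1 (SNAT1) had a difference of -0.21. Slc1a5 (ASCT2), a main glutamine carrier of dividing cells, had signals of 8.67 after cocaine and 9.10 in the control, a difference of -0.43, and its relative Slc1a4 (ASCT1) one of -0.08. All of these but Slc38a5 were within 2-fold.
On the membrane of lysosomes, Slc38a9 senses arginine for the growth kinase mTOR, and its signals were 10.37 and 10.53. Slc36a1, which exports small amino acids from lysosomes with protons, had a signal of 7.63 after cocaine, within background, and 8.31 in the control, or at least 1.47-fold lower. Slc38a7, which exports glutamine and asparagine from lysosomes, Slc38a6 and Slc36a4 had differences of 0.11, -0.04 and 0.02. Slc38a3, Slc38a4, Slc38a8, Slc36a2 and Slc36a3 were within background on both arrays, with differences from -0.09 to 0.51.
The sodium-coupled glutamate carriers of the Slc1a family and the 4 measured carriers of the cationic amino acid subgroup of Slc7a were within background on both arrays. Slc7a1, which belongs to the same subgroup, was not among the genes analysed, so these values do not cover it. The 5 glutamate carriers Slc1a1, Slc1a2, Slc1a3, Slc1a6 and Slc1a7, best known from neurons and glia, had signals of at most 6.33 after cocaine and differences from -0.29 to 0.39. Slc7a2, a carrier of arginine, had a signal of 7.43 after cocaine and 6.18 in the control, and Slc7a3, Slc7a4 and Slc7a14 had differences of 0.40, 0.47 and 0.07. All 4 differences had the same sign, but they cannot be told from background. Slc7a3l1 (0.46) was also within background, and Slc7a6os had signals of 8.04 and 7.90.

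**Figure D3:**
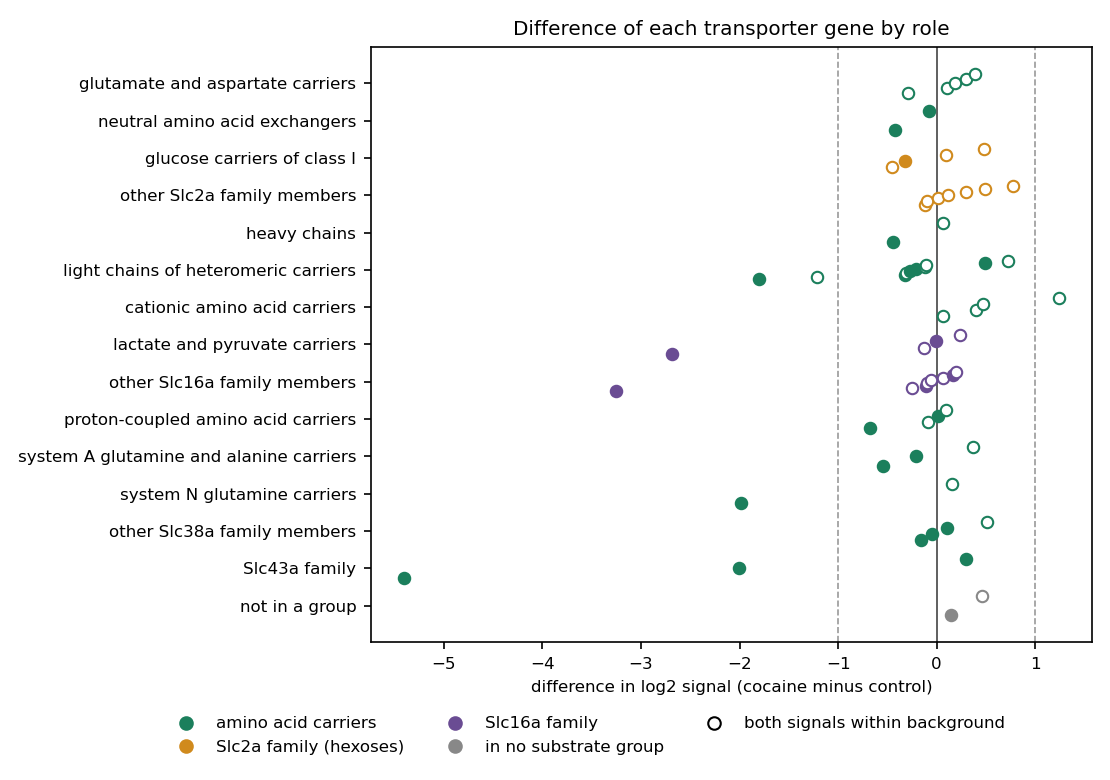
Difference in log2 signal, cocaine minus control (x axis), of each of the 64 transporter genes by role (rows), coloured by family; open circles have both signals within background and dashed lines mark 2-fold. The 6 filled circles left of the -1 line are Slc43a1 (-5.41), Slc16a10 (-3.25), Slc16a1 (-2.68), Slc43a3 (-2.01), Slc38a5 (-1.99) and Slc7a5 (-1.80).

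Of the lactate and pyruvate carriers, only Slc16a1 was past 2-fold. It encodes MCT1, which moves lactate together with protons. Its signal was 9.79 after cocaine and 12.48 in the control, a difference of -2.68 or 6.43-fold. Slc16a7 (MCT2), a carrier with a higher affinity for pyruvate, had signals of 9.66 and 9.67. Slc16a3 (MCT4), which exports lactate from glycolytic cells, had signals of 6.24 and 6.37 and Slc16a8 (MCT3), known from the retinal pigment epithelium, of 4.99 and 4.75, all within background. Of the 2 that were above background, Slc16a1 was thus 6.43-fold lower and Slc16a7 differed by -0.01.
Of the other members of this family, Slc16a6, described in zebrafish liver as an exporter of ketone bodies, had signals of 11.82 after cocaine and 11.93 in the control. Slc16a11 was above background after cocaine only (7.88 against 7.71). Slc16a4, Slc16a5, Slc16a12, Slc16a13 and Slc16a14 were within background on both arrays, with differences from -0.25 to 0.20.
The partner proteins of the lactate carriers were set beside them. Embigin (Emb), a partner of Slc16a7 that can also bind Slc16a1, had a signal of 13.03 after cocaine and 17.17 in the control, a difference of -4.14. Basigin (Bsg), the usual partner of Slc16a1 and Slc16a3, had signals of 10.77 and 10.79. Neuroplastin (Nptn), of the same protein family, had signals of 12.04 and 12.13. Of the 3 partner genes, all above background on both arrays, 1 was at least 2-fold lower, against 6.96% of all such genes. The others had differences of -0.02 and -0.09. The study lists Emb among genes related to red cells that were lower after cocaine.

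No hexose carrier was past 2-fold, and of the 11 measured only Slc2a1 was above background. Of all genes, 4.97% were at least 2-fold lower and 2.28% higher. Among all genes within background on both arrays the shares were 1.40% and 1.94%. These values thus do not set the family apart. Slc2a1 (GLUT1), the glucose carrier of most cells, had a signal of 8.16 after cocaine and 8.49 in the control, a difference of -0.33. Slc2a3 (GLUT3), a glucose carrier of neurons and white blood cells, had signals of 7.14 and 7.59. Slc2a2 and Slc2a4, the carriers of liver and of insulin-responsive muscle and fat, had differences of 0.10 and 0.48. The fructose carrier Slc2a5 (0.29), the urate carrier Slc2a9 (0.50) and the inositol carrier Slc2a13 (0.77) had higher values after cocaine, all within background. Slc2a6, Slc2a8, Slc2a10 and Slc2a12 had differences from -0.12 to 0.11. Over the 11 genes the median difference was 0.10.
The enzymes that first handle glucose and last handle lactate were measured on the same arrays. Hk1, the hexokinase of red cells and many other tissues, had a signal of 9.84 after cocaine and 11.90 in the control, a difference of -2.05. Hk2, the inducible hexokinase, had signals of 9.16 and 8.33, a difference of 0.83. Of the lactate dehydrogenase subunits, Ldhb had signals of 10.96 and 9.89 (1.07) and Ldha of 14.74 and 14.42 (0.33). Of 6 genes of this list, 1 was at least 2-fold lower and 1 at least 2-fold higher, against 4.97% and 2.28% of all genes. Hk3 and Ldhc were within background. Txnip, which removes glucose carriers from the cell surface, had signals of 15.51 and 15.45, and none of the 4 measured genes that control glucose carriers was past 2-fold.

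**Figure D4:**
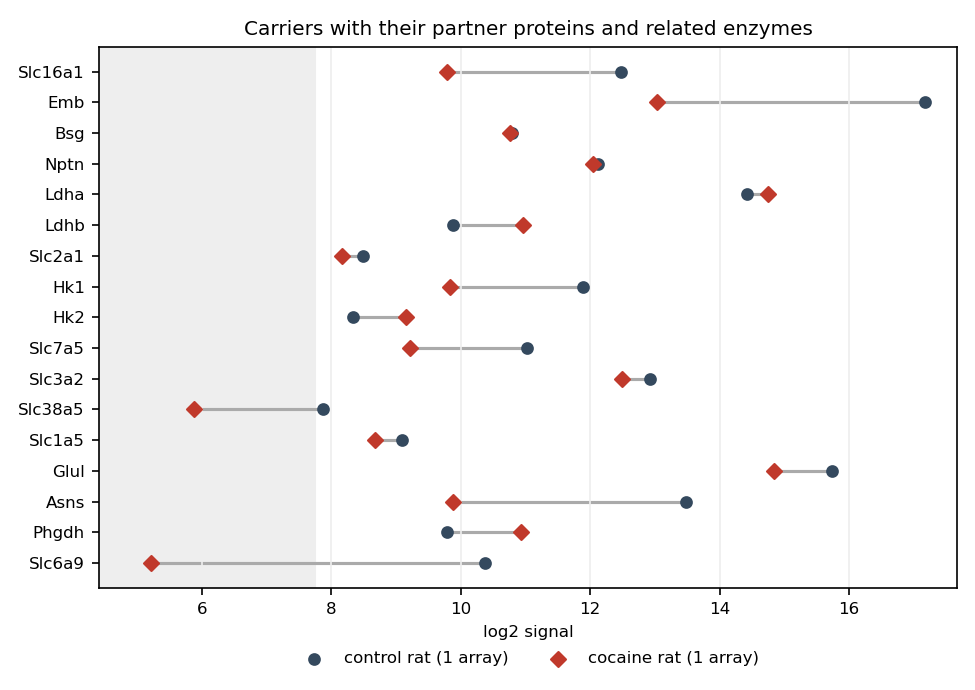
Log2 signal (x axis) of selected carriers, their partner proteins and related enzymes (rows) of the control rat (circles) and the cocaine rat (diamonds), 1 array each; the grey area lies under the highest background feature (7.76). Slc16a1 and Emb are lower after cocaine while Bsg differs by -0.02, and Hk1 and Asns differ by -2.05 and -3.60. Slc6a9 is within background after cocaine and at least 6.12-fold lower.

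Carriers of amino acids and sugars from other families were mostly within background. Of 24 such genes, 7 were above background on the arrays or on 1 of them. Of the 24, 1 was at least 2-fold lower, against 4.97% of all genes. This gene was Slc6a9 (GlyT1), which takes up glycine, a building block of heme. It had a signal of 10.37 in the control and of 5.22, within background, after cocaine, which leaves a bound of at least 6.12-fold from a difference of -5.15. The taurine carrier Slc6a6 had a difference of -0.45. Mfsd12, a lysosomal cysteine carrier, had signals of 8.88 and 9.87, just within 2-fold. The subunits of the mitochondrial pyruvate carrier, Mpc1 and Mpc2, had differences of 0.25 and -0.20.
Genes of the amino acid response, which cells switch on through ATF4 when amino acids are short and which includes several transporter genes above, went in both directions. Of 17 measured, 1 was at least 2-fold lower and 1 at least 2-fold higher, against 4.97% and 2.28% of all genes. Their median difference was 0.26, and that of all genes was 0.04. Asns, which makes asparagine from glutamine, had a signal of 9.88 after cocaine and 13.48 in the control, a difference of -3.60. Phgdh, the first enzyme of serine synthesis, had signals of 10.94 and 9.80 (1.14). Atf4 itself had signals of 15.03 and 15.59, a difference of -0.55, and its target Ddit3 one of 0.26. Chac1 and Trib3, further targets, were within background on both arrays.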

How the data were processed

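Spleen RNA of 1 rat given cocaine and 1 control rat was extracted by the authors (TRIzol, then RNeasy with DNase digestion) and hybridized to Clariom S arrays. The authors deposited 1 summarised log2 signal per feature. How it was background-corrected and normalized, and the annotation build, were not given in the sources used here. The log base was inferred from ratios that the study tabulates. Of 24834 features, 1646 control features were left out, and 15049 of 23188 transcript clusters had 1 gene symbol. The rest, 8139, had none. The 64 symbols all matched RefSeq by Entrez identifier, and no sample column was left out. Where a gene has several transcript clusters, that with the highest mean signal was kept.
Differences, counts past 2-fold and medians were computed with no test, since each group held 1 array. Signals under the highest background feature (7.76) were raised to it for bounds, which are given where 1 signal lay above it. Named were all transporter genes past 2-fold or above background. Of each related list, the genes past 2-fold and a selection of the others were named. That selection left out some of the strongest, among them Ddit4 and Sars1 of the amino acid response and Glud1 of the glutamine enzymes. A few others were named after their values were seen. The members, lists, motifs and alternatives were chosen with earlier results of these data known. The procedure was checked on simulated arrays with known shifts and no noise. That checks the computation and cannot give a rate of false calls. Tools were pandas 2.3.3, numpy 2.4.6 and statsmodels 0.14.6 under python 3.11.15, with matplotlib 3.10.9 for figures.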

Additional observations from a re-analysis of the deposited data

How the results depend on the processing

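The 5 scalings (centring on the median, the 75th percentile or the transcript clusters above both medians, quantile normalization and a loess correction with a span of 0.3) left 7 transporter genes at least 2-fold lower and 1 higher. The median of the 64 genes lay between -0.06 and 0.07 under them, so its sign is not settled, while the median over all genes, 0.04 without scaling, lay between -0.02 and 0.13. Slc43a1 lay between -5.45 and -5.29, Slc16a10 between -3.28 and -3.15, Slc16a1 between -2.72 and -2.59, Slc43a3 between -2.04 and -1.91 and Slc7a5 between -1.82 and -1.70. The signs of Slc16a7, Slc1a4, Slc36a4 and Slc38a6 turned with the scaling.
With a floor at the highest background feature, 5 genes were at least 2-fold lower and 0 higher, since Slc38a5, Slc7a9 and Slc7a2 rest on signals within background. With the floor at that feature, 553 of all 15037 genes were lower and 147 higher. Among genes above that feature on either array 6 were lower and 0 higher, and the median was -0.24. Among those reaching the median signal of either array it was -0.21. At 1.5-fold 8 genes were lower and 3 higher, and at 4-fold 4 were lower and 0 higher. The shares over all genes at those thresholds are not given here. Averaging the clusters of a gene changed nothing, as each had 1. No paired analysis was possible because each group held 1 array, and no array could be left out.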

Other observations

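The genes that sense and use amino acids inside the cell had no gene past 2-fold in 2 further lists. Of 18 measured genes of amino acid sensing at the lysosome, the surface on which mTOR is switched on, 0 were past 2-fold and the median difference was -0.15. Rragd, a GTPase that recruits mTOR, had a signal of 7.33 after cocaine, within background, and 8.09 in the control, or at least 1.26-fold lower. Sesn3, a sestrin that restrains mTOR, had signals of 15.58 and 14.95, a difference of 0.63. Rraga (-0.37), Depdc5 (-0.35) and Mtor itself (0.17) were closer to 0.
Of 11 measured enzymes of glutamine and arginine use, 0 were past 2-fold. Glul, glutamine synthetase, had signals of 14.84 after cocaine and 15.74 in the control, a difference of -0.90. Asl, the last enzyme of arginine synthesis, had signals of 6.89, within background, and 7.87, and Got1, a cytosolic aminotransferase, had signals of 8.54 and 7.80 (0.74). Arg1, Arg2 and Nos2, which use arginine, were within background on both arrays. Over the markers of other cells, 4 of 7 measured neutrophil genes and 2 of 6 platelet genes were at least 2-fold lower, or 3 and 1 with signals within background raised to 7.76, while no macrophage gene (of 9) was past 2-fold. At least 2-fold higher were 2 of 7 plasma cell genes and 1 each of 5 B cell, 8 T cell and 8 endothelial genes, and all of these but the T cell gene were so with the same floor. Without the floor, 4.97% of all genes were at least 2-fold lower and 2.28% at least 2-fold higher. With the floor, 553 of all 15037 genes were lower by as much and 147 higher.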
